A study of Homo sapiens with 12 samples.

Results

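The transcripts described here are those of 10 nuclear genes that encode chaperones and proteases of the mitochondria: HSPD1, HSPE1, HSPA9, DNAJA3, TRAP1, LONP1, CLPP, CLPX, YME1L1 and OMA1. They were taken by gene symbol from a deposited table of 28278 genes, and all 10 were found and passed the filter on low counts, which left 17137 genes. RNA was sequenced from 12 samples of alpha cells, the islet cells that secrete glucagon, differentiated from HUES-8, a widely used line of human embryonic stem cells. The 6 DMSO samples received the solvent, and the 6 tunicamycin samples received 5 uM of tunicamycin, a blocker of N-linked glycosylation that causes stress of the endoplasmic reticulum (ER). All were kept for 48 h in 30 mL bioreactors turning at 40 rpm. Both groups came from this 1 line, and numbers 1 to 3 formed sequencing batch 1 and numbers 4 to 6 batch 2. The labels call the samples biological replicates but do not tell if they were differentiated separately. The p-values therefore measure only the spread between these samples, which may in part be technical.

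Nearly all mitochondrial proteins are made in the cytosol and threaded unfolded into the organelle, where a separate set of folding and degrading machines takes over. HSPA9 (mortalin, the mitochondrial HSP70) pulls proteins in and folds them with its J-domain partner DNAJA3. HSPD1 and its lid HSPE1 form the chaperonin of the matrix, and TRAP1 is the mitochondrial HSP90. LONP1 and the CLPX-CLPP pair, an unfolding ATPase and a peptidase chamber, degrade damaged matrix proteins, while YME1L1 and OMA1 cut proteins in the inner membrane, among them the fusion factor OPA1. Alpha cells, as secretory cells, carry a heavy folding load in the ER, which has its own HSP70 (HSPA5) and HSP90 (HSP90B1).

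Libraries held 17523442 to 28872269 counts. Levels are given as CPM, the reads of a gene relative to the size of its library after scaling by TMM factors, as mean ± SD of 6 samples. Fold changes are tunicamycin over DMSO with a standard error, from the quasi-likelihood test of edgeR, fitted with the sequencing batch as a term. A gene was called at an adjusted p (Benjamini-Hochberg over all 17137 genes) under 0.05. All 10 alpha cell markers, GCG among them, were above 1 CPM in every sample, and their summed level was 80170 to 119400 CPM with DMSO and 59880 to 95970 CPM with tunicamycin. Markers of other cells were present too. The summed level of 13 heart muscle genes was 2300 CPM in DMSO 5, 621 CPM in DMSO 1 and 436 CPM in DMSO 4, against 35.9 to 81.6 CPM in the other DMSO samples. It was 1214 CPM in tunicamycin 5, 227 CPM in tunicamycin 4 and 33.4 to 81.7 CPM in the other tunicamycin samples. The summed level of 10 mesenchymal genes was 739 to 2398 CPM with DMSO, highest in DMSO 1, and 821 to 1436 CPM with tunicamycin. By edgeR 0 of the 10 fell, but 8 did with the sample number as a block, and of 12 heart muscle genes tested 0 and 2. In bulk samples fewer cells of a type and less RNA per cell cannot be told apart.

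The upstream sequences of LONP1 and HSPA9, the members whose transcripts rose, are shown with that of HSPA5, the ER relative of HSPA9, whose transcript rose far more. They are the 250 bases before a RefSeq start of each gene (GRCh38.p14), 5′ to 3′ on the gene's strand. They lie at chr19:5720453-5720702, chr5:138575402-138575651 and chr9:125241344-125241593, all on the minus strand. GENCODE places the starts of LONP1 (5720572) and HSPA9 (138575724) further upstream. The HSPA9 sequence and part of the LONP1 sequence thus lie within the gene as annotated there. Capitals mark the 4 copies of ATGCGC in the LONP1 sequence and the ER stress response element in the HSPA5 sequence.
LONP1: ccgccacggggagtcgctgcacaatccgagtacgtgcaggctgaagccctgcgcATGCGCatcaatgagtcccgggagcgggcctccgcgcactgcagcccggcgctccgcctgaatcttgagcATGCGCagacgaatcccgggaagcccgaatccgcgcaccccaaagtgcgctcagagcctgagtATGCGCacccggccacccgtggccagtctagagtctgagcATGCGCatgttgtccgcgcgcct
HSPA9: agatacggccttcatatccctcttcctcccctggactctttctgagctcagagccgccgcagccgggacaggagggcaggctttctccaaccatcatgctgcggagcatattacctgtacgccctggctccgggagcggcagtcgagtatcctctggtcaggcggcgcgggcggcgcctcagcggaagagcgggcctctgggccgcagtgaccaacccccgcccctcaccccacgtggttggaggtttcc
HSPA5: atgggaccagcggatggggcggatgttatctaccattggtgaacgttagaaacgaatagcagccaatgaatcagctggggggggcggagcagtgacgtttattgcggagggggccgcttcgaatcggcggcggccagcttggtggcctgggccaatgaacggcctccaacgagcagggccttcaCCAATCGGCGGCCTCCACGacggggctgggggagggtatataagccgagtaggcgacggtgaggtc

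Of the 10 members 8 had a RefSeq window of 250 bases before to 50 bases after a start, 10 windows in all, which were searched on both strands beside 35116 windows of all genes. The ER stress response element, CCAAT and CCACG with 9 bases of any kind between them, was in 0 of the 10 member windows and in 27 of all windows (0.0769%), those of HSPA5 and HSP90B1 among them. Its second form, ATTGG and CCACG with 1 base between them (0.0541% of all windows), the unfolded protein response element TGACGTGG (0.729%) and the ATF4 and C/EBP composite element TGATGNAA (3.62%) were also in 0 member windows. The CCAAT box, CCAAT, which is part of the ER stress response element, was in 2 member windows, those of CLPX and DNAJA3, and in 34.6% of all windows. The element of nuclear respiratory factor 1, a regulator of mitochondrial genes, in which ATGCGC is preceded by GCGC, was in the window of LONP1 and in 1.24% of all windows. Its inner part ATGCGC, chosen after the sequence was read, stood 4 times on the gene strand of that window, which held for 3 of the 35116 windows. A match is a description of letters, not a site of binding.

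HSPD1 and HSPE1 lie head to head on chromosome 2. The 104 bases between their RefSeq starts are shown because both genes start beside them there (chr2:197500275-197500378, strand of HSPE1). By the GENCODE positions both genes extend across this gap. The heat shock element, GAA, TTC and GAA with 2 bases between neighbours or the same with TTC, GAA and TTC, was not in this gap. It was in a second HSPD1 window, within the first intron, of which 30 bases are shown on the HSPD1 strand with both overlapping forms in capitals (chr2:197500061-197500090), and in 0.49% of all windows.
HSPD1-HSPE1 gap: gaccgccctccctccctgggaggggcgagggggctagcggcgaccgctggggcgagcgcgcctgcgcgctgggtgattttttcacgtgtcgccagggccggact
HSPD1 intron: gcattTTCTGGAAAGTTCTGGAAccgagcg

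Tunicamycin raised 2 of the 10 transcripts, those of HSPA9 and LONP1, and lowered 0 of them. Of all tested genes 4.56% were called higher and 3.29% lower. The median log2 fold change of the 10 was 0.01, against -0.01 over all genes tested. With the sample number as a replicate block the count was 2 higher and 1 lower, the latter TRAP1, where 8.92% and 8.4% of all genes were called. At an unadjusted p under 0.05 there were 3 members higher and 2 lower, where 10.8% and 11.2% of all genes were. DESeq2 called 2 members higher and 1 lower, HSPE1, where it called 6.03% and 5.62% of all genes. By limma-voom 2 were higher and 0 lower, where 4.63% and 3.03% of all genes were. With so few members, neither the higher nor the lower counts were taken to stand out from these shares. The groups did not overlap in 1 of the 10 transcripts, HSPA9, which was higher with tunicamycin, against 2.48% of all genes with such separation upward and 1.29% downward. Tunicamycin was higher in all 6 pairs of equally numbered samples for 2 members (10.7% of all genes) and lower in all 6 for 1 (10.3%).

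**Figure D1:**
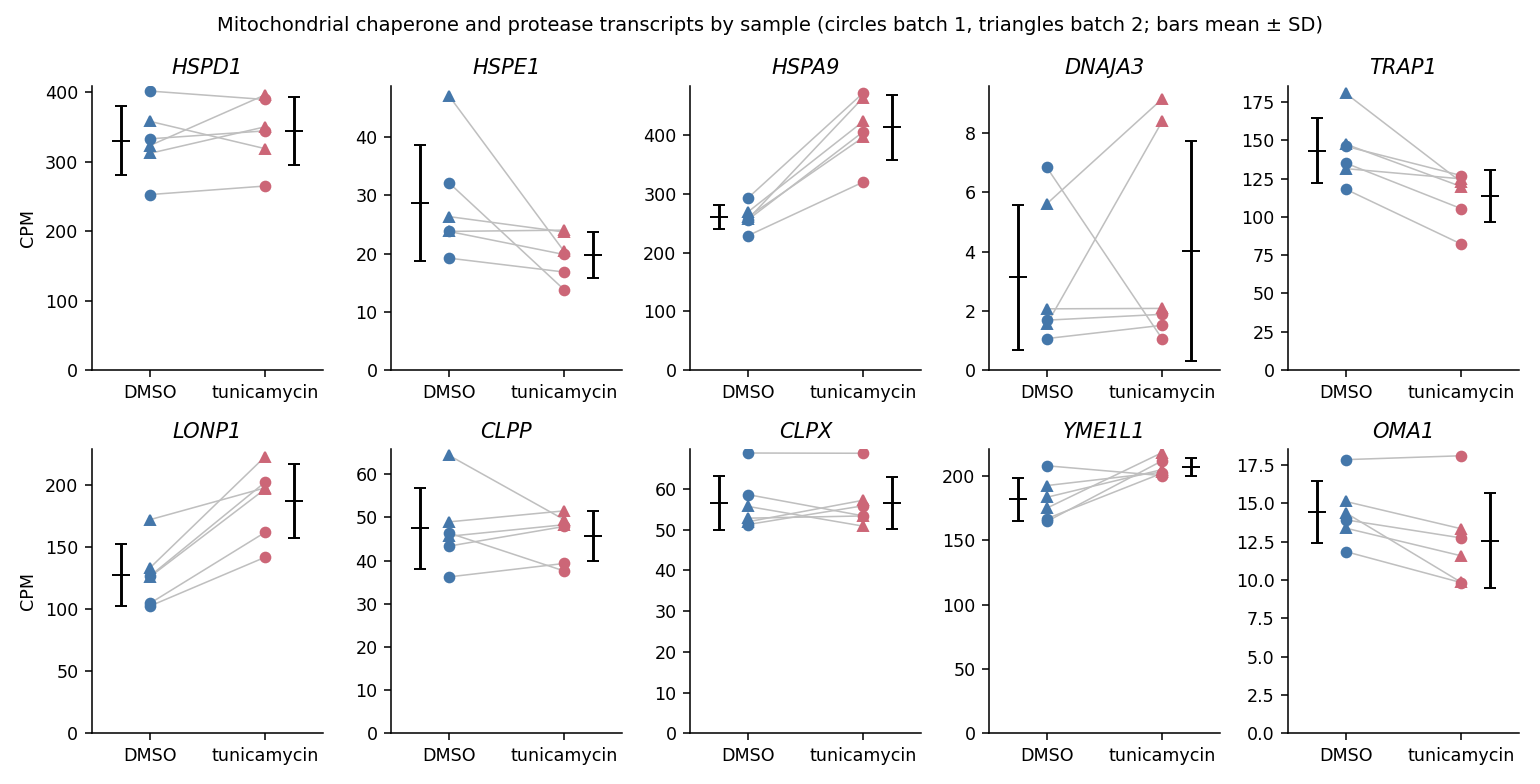
CPM of each of the 10 transcripts in every sample, DMSO on the left and tunicamycin on the right of each panel, with grey lines joining equally numbered samples, circles for batch 1, triangles for batch 2 and bars for mean ± SD (n = 6). The HSPA9 samples with tunicamycin lie between 320 and 472 CPM, all above the DMSO samples, while the DNAJA3 samples scatter between 1.05 and 9.16 CPM in overlapping groups.

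Among the chaperones of import and folding, HSPA9 (ENSG00000113013, chromosome 5, 138553756 to 138575724, minus strand, GRCh38) ran from 229 CPM in DMSO 3 to 293 CPM in DMSO 2, with a median of 258 CPM. With tunicamycin it ran from 320 CPM in tunicamycin 3 to 472 CPM in tunicamycin 2, with a median of 414 CPM. Every tunicamycin sample was thus above every DMSO sample, and the sample numbered 3 was the lowest of both groups. The mean rose 1.59-fold, 260 ± 21 CPM becoming 413 ± 55 CPM (a log2 fold change of 0.67 ± 0.11, adjusted p = 0.0015 by edgeR). The change within pairs was between 0.48 and 0.85 on the log2 scale, and the values in batches 1 and 2 were 0.63 and 0.71. Without both pairs numbered 1 and 5, a fit chosen after seeing the data because their DMSO samples had the highest heart muscle levels, it was 0.66 (adjusted p = 0.045 by edgeR).

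DNAJA3 (ENSG00000103423, chromosome 16, 4425805 to 4456775, plus strand), the J-domain partner that loads substrates onto HSPA9, had only 20 to 191 counts per sample. It ran from 1.06 CPM in DMSO 1 to 6.85 CPM in DMSO 2 (median 1.88) and from 1.05 CPM in tunicamycin 2 to 9.16 CPM in tunicamycin 4 (median 1.98). The groups overlapped over nearly their whole range, with high values in DMSO 2, DMSO 4, tunicamycin 4 and tunicamycin 5 and at most 50 counts in each of the other 8 samples. The annotation lists 3 genes that overlap DNAJA3, the labels do not tell how such reads were assigned, and the source of the uneven counts was not tested, so its levels and ratios are uncertain. The lowest log2 change within a pair was -2.70 and the highest 2.44, for number 5. The fitted value was 0.02 ± 0.62 (95% interval -1.32 to 1.36, adjusted p = 0.99 by edgeR). Tunicamycin was higher in 5 of 6 pairs, by 0.01 to 2.44, and lower in the pair numbered 2. Batch 1 alone gave -1.09 and batch 2 alone 1.09, but the difference between batches did not pass the test (2.19 ± 1.03, unadjusted p = 0.052, adjusted p = 0.99999 by edgeR).

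TRAP1 (ENSG00000126602, chromosome 16, 3651639 to 3717597, minus strand), the HSP90 of the matrix, ran from 118 CPM in DMSO 1 to 181 CPM in DMSO 5, with a median of 141 CPM. With tunicamycin it ran from 82.3 CPM in tunicamycin 1 to 127 CPM in tunicamycin 3, with a median of 121 CPM. Each tunicamycin sample was below the DMSO sample of its number, although the groups overlapped. Means were 143 ± 21 and 114 ± 17 CPM. The log2 fold change of -0.33 ± 0.11 did not pass (adjusted p = 0.095 by edgeR). Blocked by sample number, TRAP1 fell by 0.34 on the log2 scale and passed (adjusted p = 0.015 by edgeR), and it also passed without tunicamycin 3 (adjusted p = 0.0488). The pairs with the strongest decrease were those numbered 5 (-0.56) and 1 (-0.52). Of the DMSO samples, theirs had the highest heart muscle levels and also the highest mesenchymal levels (1651 CPM in DMSO 5 and 2398 CPM in DMSO 1). Without both pairs the value was -0.24 (adjusted p = 0.31 by edgeR). With the mean of heart muscle or of mesenchymal markers as a covariate, TRAP1 stayed below 0 and again did not pass. Among the DMSO samples TRAP1 was highest in DMSO 5 but lowest in DMSO 1. Whether any of its decrease came from such cells was not tested.

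Neither subunit of the chaperonin passed the test. HSPD1 (ENSG00000144381, chromosome 2, 197486581 to 197516737, minus strand) ran from 253 CPM in DMSO 3 to 402 CPM in DMSO 2 (median 328) and from 265 CPM in tunicamycin 3 to 397 CPM in tunicamycin 4 (median 348). The ranges coincided, and the means were 330 ± 50 and 344 ± 48 CPM. The log2 fold change was 0.06 ± 0.13, with a 95% interval of -0.21 to 0.33 (adjusted p = 0.84 by edgeR). The co-chaperonin HSPE1 (ENSG00000115541, chromosome 2, 197499994 to 197503457, plus strand) ran from 19.2 CPM in DMSO 3 to 47.1 CPM in DMSO 5 (median 25.1) and from 13.8 CPM in tunicamycin 1 to 24.0 CPM in tunicamycin 6 (median 20.1). Its high values were in DMSO 5 and DMSO 1, the DMSO samples with the highest heart muscle and mesenchymal levels. The mean was 28.7 ± 9.95 against 19.8 ± 3.95 CPM (log2 fold change -0.55 ± 0.18, adjusted p = 0.079 by edgeR), which did not pass, although DESeq2 called it (adjusted p = 0.033). The changes in pairs 1 and 5 were -1.22 and -1.21, and in the other pairs they lay between -0.26 and 0.01. Without pairs 1 and 5 the value was -0.16 (adjusted p = 0.64 by edgeR), and with the mean of heart muscle markers as a covariate it was -0.39 (adjusted p = 0.19).

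Counts of HSPE1 carry a further uncertainty. The annotation holds a readthrough gene, HSPE1-MOB4, that shares the HSPE1 exons, and the table lists HSPE1-MOB4 at 0 and MOB4 at 15 counts over all 12 samples, against 6629 for HSPE1 and 92097 for HSPD1. The labels do not tell how reads in overlapping genes were assigned. GENCODE also lists 26 pseudogenes named after HSPE1 and 17 named after HSPD1, so reads of both genes may have near-identical copies elsewhere.

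**Figure D2:**
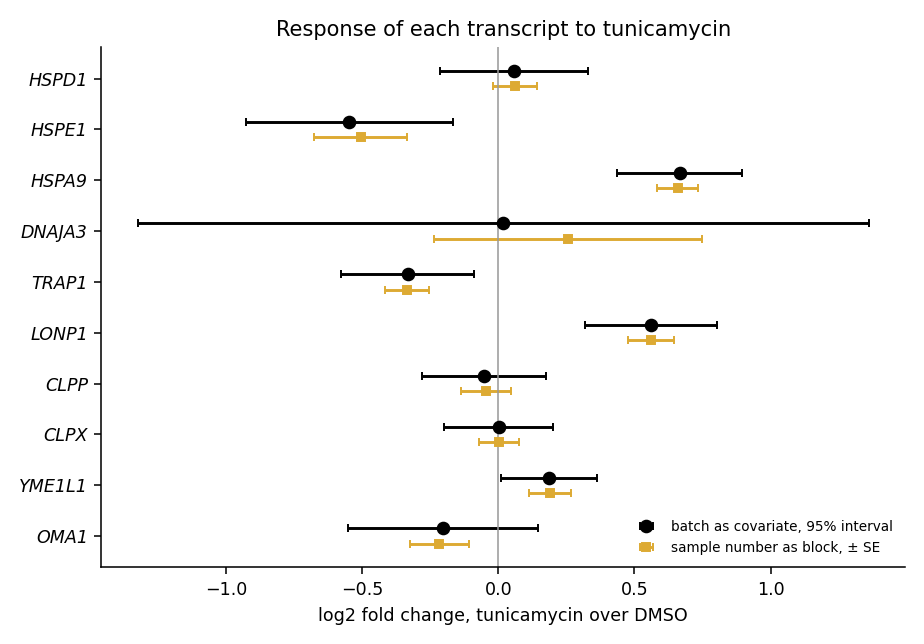
Log2 fold change of each transcript, tunicamycin over DMSO, with batch as a covariate (black, 95% interval) and with the sample number as a block (yellow, ± SE). HSPA9 (0.67) and LONP1 (0.56) stand above 0, TRAP1 (-0.33) and HSPE1 (-0.55) below it, and the interval of DNAJA3 reaches from -1.32 to 1.36.

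Of the matrix proteases, LONP1 rose and CLPP and CLPX did not pass. LONP1 (ENSG00000196365, chromosome 19, 5691834 to 5720572, minus strand), an ATP-dependent protease that also binds mitochondrial DNA, ran from 103 CPM in DMSO 3 to 172 CPM in DMSO 5 (median 126). With tunicamycin it ran from 142 CPM in tunicamycin 3 to 223 CPM in tunicamycin 4 (median 197). All pairs had higher values with tunicamycin, with overlap only because DMSO 5 was above tunicamycin 1 and tunicamycin 3. The mean rose 1.47-fold, 128 ± 25 CPM becoming 187 ± 30 CPM (a log2 fold change of 0.56 ± 0.11, adjusted p = 0.0074 by edgeR). The value was 0.61 in batch 1 and 0.52 in batch 2. With the average of the 10 mesenchymal markers added to the fit it was 0.44 and no longer passed (adjusted p = 0.062 by edgeR), while without pairs 1 and 5 it was 0.64 (adjusted p = 0.035). The annotation lists RPL36 as overlapping LONP1, with 42032 counts over all 12 samples against 42285 for LONP1. The labels do not tell how reads in the overlap were assigned.

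The peptidase CLPP (ENSG00000125656, chromosome 19, 6361452 to 6368910, plus strand) ran from 36.2 CPM in DMSO 3 to 64.4 CPM in DMSO 5 and from 37.6 CPM in tunicamycin 1 to 51.5 CPM in tunicamycin 6. Medians were 46.0 and 48.1 CPM, and 4 of 6 pairs had higher values with tunicamycin. The fitted value was -0.05 ± 0.11 (95% interval -0.28 to 0.18, adjusted p = 0.83 by edgeR). Its unfoldase CLPX (ENSG00000166855, chromosome 15, 65148219 to 65185342, minus strand) ran from 51.3 to 68.8 CPM with DMSO (median 54.3) and from 50.9 to 68.8 CPM with tunicamycin (median 54.6), the highest sample being number 2 in both groups. Its fitted value was 0.00 ± 0.09 (95% interval -0.20 to 0.20, adjusted p = 0.996 by edgeR), with 3 pairs higher and 3 lower. For both subunits the interval leaves out a change as large as the one measured for LONP1.

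Neither protease of the inner membrane passed. YME1L1 (ENSG00000136758, chromosome 10, 27110112 to 27155266, minus strand), which faces the intermembrane space, ran from 165 CPM in DMSO 1 to 208 CPM in DMSO 2 (median 179) and from 200.2 CPM in tunicamycin 2 to 218 CPM in tunicamycin 4 (median 204). The tunicamycin samples were closely grouped, with a coefficient of variation of 3.32% against 9.09% with DMSO, and only DMSO 2 reached into their range. The log2 fold change was 0.19 ± 0.08 (5 of 6 pairs higher, adjusted p = 0.21 by edgeR). OMA1 (ENSG00000162600, chromosome 1, 58415384 to 58546802, minus strand), the stress-activated protease that cuts OPA1 and DELE1, ran from 11.8 to 17.8 CPM with DMSO (median 14.1) and from 9.82 to 18.1 CPM with tunicamycin (median 12.2). The sample numbered 2 was the highest in both groups and the sample numbered 3 the lowest. The log2 fold change was -0.20 ± 0.16 (5 of 6 pairs lower, 95% interval -0.55 to 0.14, adjusted p = 0.51 by edgeR).

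Levels of different genes were compared per kilobase of the longest coding transcript in GENCODE release 29. With DMSO the order was led by HSPD1 at 135 ± 20 CPM per kb. TRAP1 (62.0 ± 9.2) and HSPA9 (55.1 ± 4.4) followed, and these neighbours did not differ beyond their spread. YME1L1 (44.0 ± 4.0), CLPP (41.0 ± 8.1) and LONP1 (39.4 ± 7.8 CPM per kb) were alike within their spread, and HSPE1 followed at 30.3 ± 10.5 CPM per kb, an SD range that overlapped that of LONP1. CLPX stood at 12.04 ± 1.41, OMA1 at 6.84 ± 0.95 and DNAJA3 at 1.14 ± 0.89 CPM per kb. With tunicamycin HSPD1 was still first at 140 ± 20 CPM per kb, followed by HSPA9 at 87.5 ± 11.6, LONP1 at 57.9 ± 9.2, YME1L1 at 50.1 ± 1.7 and only then TRAP1 at 49.3 ± 7.5 CPM per kb. The values of LONP1, YME1L1 and TRAP1 overlapped within 1 SD.

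Ratios between 2 transcripts of the same sample were tested for 8 pairs, with exact permutation tests of the group labels within batches, two-sided, whose smallest possible p is 0.005, and with Benjamini-Hochberg adjustment over the 8. These are ratios of CPM without a correction for transcript length. Their change between groups can be read, but not which of the transcripts was more abundant. LONP1 over CLPP was 2.69 with DMSO (2.26 to 2.92) and 4.08 with tunicamycin (3.61 to 4.62). The ranges of the groups did not overlap (0.60 on the log2 scale, exact permutation p = 0.005, adjusted 0.01). LONP1 over HSPD1 went from 0.384 to 0.543, higher in 6 of 6 pairs (0.50 on the log2 scale, exact permutation p = 0.005, adjusted 0.01). Both ratios use the counts behind the call of LONP1 (0.56), while CLPP (-0.05) and HSPD1 (0.06) did not pass. They largely restate the rise of LONP1 and are no separate result. HSPD1 over HSPE1 was 11.9 with DMSO and 17.6 with tunicamycin, higher in 6 of 6 pairs (0.57 on the log2 scale, exact permutation p = 0.01, adjusted 0.016), but 0.27 without pairs 1 and 5. YME1L1 over OMA1 went from 12.7 to 16.8, higher in 5 of 6 pairs (0.41 on the log2 scale, exact permutation p = 0.03, adjusted 0.034). Its call was lost in 8 of the 12 fits that each left out 1 sample, all but those without tunicamycin 2, DMSO 3, tunicamycin 4 or DMSO 6 (adjusted p up to 0.069). CLPX over CLPP, the 2 parts of 1 protease, was 1.20 and 1.24 (0.05 on the log2 scale, exact permutation p = 0.71, adjusted 0.71). With samples paired by number, exact sign flips over the 6 pairs allow no p under 0.0312, and 0 of the 8 ratios passed: the 5 that moved one way in every pair were at an adjusted p of 0.05, YME1L1/OMA1 and DNAJA3/DNAJB11 at 0.0714 and CLPX/CLPP at 0.75.

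**Figure D3:**
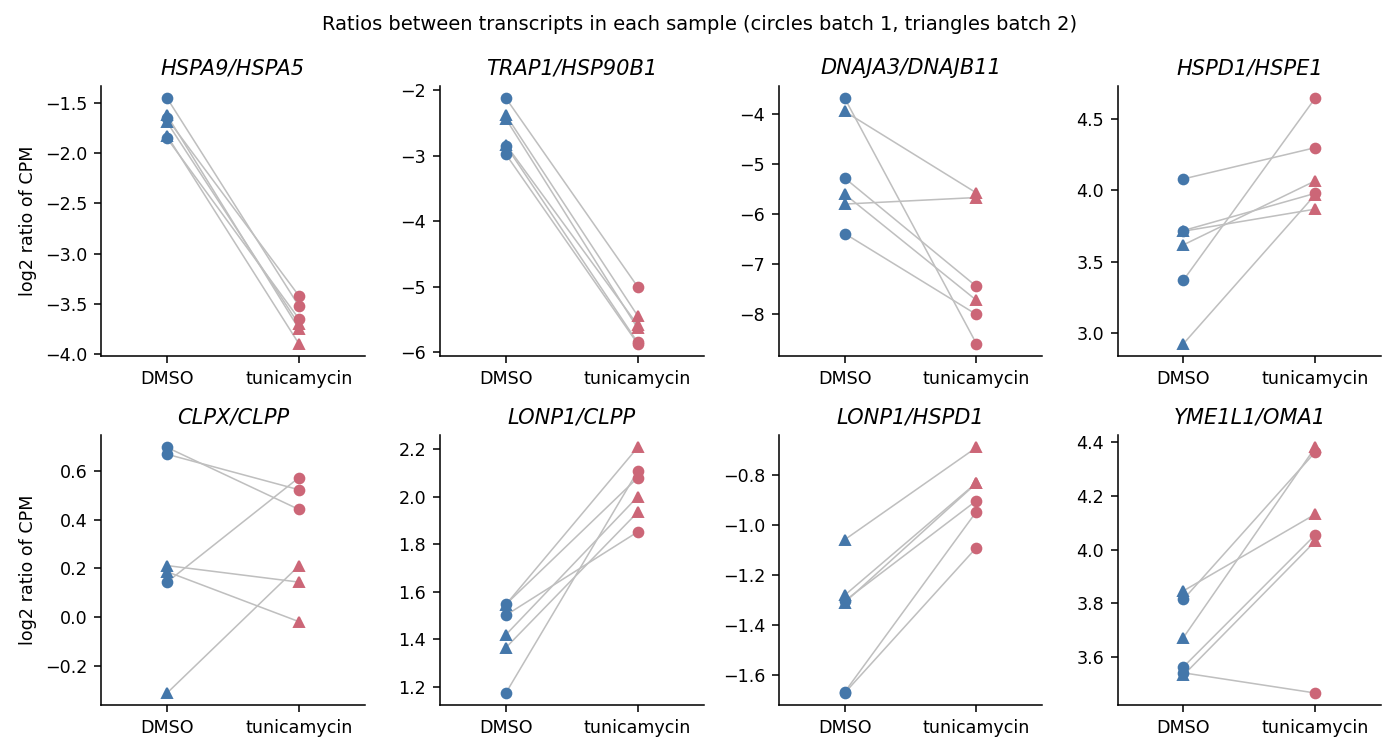
Log2 ratio of the CPM values of 2 transcripts in each sample, DMSO on the left and tunicamycin on the right of each panel, with lines joining equally numbered samples, circles for batch 1 and triangles for batch 2. The LONP1/CLPP ratio is higher with tunicamycin in every pair, and the HSPA9/HSPA5 and TRAP1/HSP90B1 ratios are lower in every pair.

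For all 3 mitochondrial chaperones tested, the ratio to the counterpart in the ER fell, where the ER gene itself rose. HSPA5, known as BiP, rose 6.19-fold. HSPA9 over HSPA5 went from 0.312 (0.277 to 0.366) to 0.0793 (0.0671 to 0.0934), a difference of -1.97 on the log2 scale (exact permutation p = 0.005, adjusted 0.01). TRAP1 over HSP90B1, the ER form of HSP90, went from 0.166 to 0.0212 (-2.97, exact permutation p = 0.005, adjusted 0.01). DNAJA3 over the ER J-protein DNAJB11 went from 0.0288 to 0.00694 (-2.05, exact permutation p = 0.025, adjusted 0.033), lower in 5 of 6 pairs and not past the threshold without tunicamycin 1, tunicamycin 2, tunicamycin 3, DMSO 4 or tunicamycin 6 (adjusted p up to 0.063). That the ER genes rise was known when these ratios were chosen, so their fall was largely set beforehand. Their p-values are therefore no separate result on the mitochondrial chaperones. HSPA9 itself rose (0.67), and TRAP1 (-0.33) and DNAJA3 (0.02) did not pass by edgeR. All 7 ER relatives tested rose, with log2 fold changes of 1.92 (DNAJC3) to 2.63 (HSPA5), among them HYOU1, an ER nucleotide exchange factor (2.44). Of 16 cytosolic relatives 0 rose and 0 fell by edgeR, DESeq2 and limma-voom, and 0 had an unadjusted p under 0.05. All 16 had values below 0, from -0.33 (HSP90AA1) to -0.02 (HSP90AB1), with a median of -0.15, and HSP90AA1 was called with the block (adjusted p = 0.047). HSP90AB1 was above 0 without pairs 1 and 5, at 0.08, and without DMSO 2, tunicamycin 3, DMSO 5 or tunicamycin 5, at up to 0.04. LONP2, the peroxisomal relative of LONP1, was at 112 ± 17 and 105 ± 13 CPM (-0.08 ± 0.10, adjusted p = 0.68 by edgeR).

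**Figure D4:**
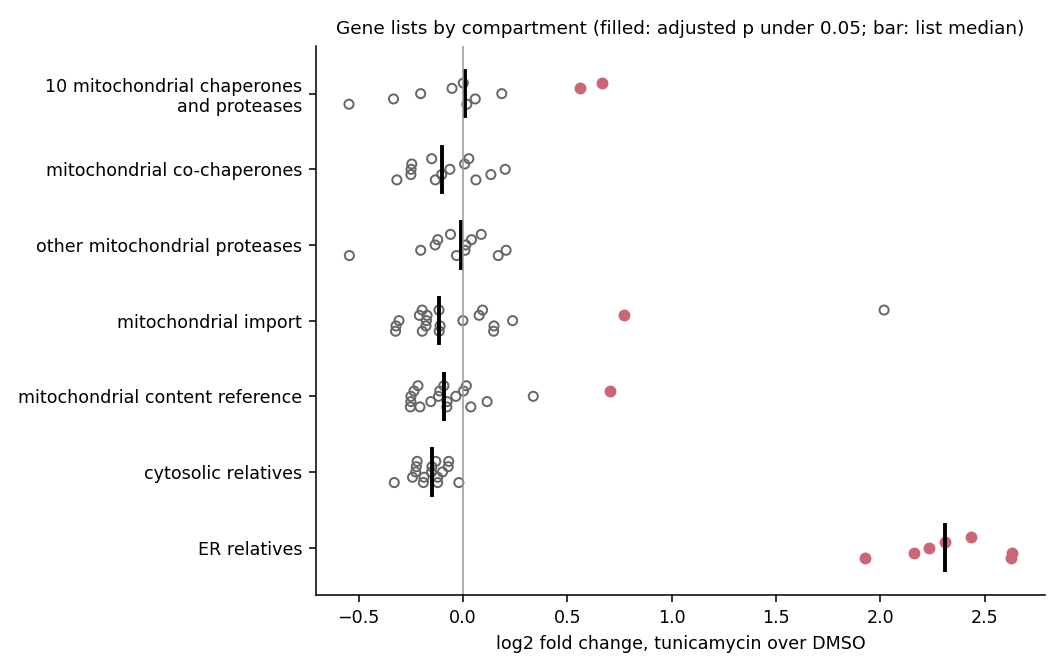
Log2 fold change of each tested gene, tunicamycin over DMSO, grouped by list, with filled points for adjusted p under 0.05 and a bar for the list median. The 7 ER relatives lie between 1.92 and 2.63, whereas the medians of the other 6 lists plotted lie between -0.15 and 0.01 and TIMM22, the open point near 2, did not pass.

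The other mitochondrial genes show what surrounded the members. Of 12 other proteases tested, 0 rose and 0 fell by edgeR, with a median of -0.01. At an unadjusted p under 0.05, 2 were lower (11.2% of all genes) and 0 higher, and DESeq2 called 1 lower (5.62% of all genes). PITRM1, the presequence peptidase, was at 0.01 ± 0.11, and SPG7, a paraplegin subunit of the m-AAA protease, at -0.12 ± 0.27. IMMP2L, an inner membrane peptidase subunit chosen after its values were seen, was at 8.60 ± 1.496 and 5.97 ± 1.264 CPM (-0.54 ± 0.17, adjusted p = 0.071 by edgeR, 0.030 with the block). Of 13 co-chaperones and assembly factors 0 rose and 0 fell by edgeR, DESeq2 and limma-voom (1 higher and 0 lower at an unadjusted p under 0.05), with a median of -0.10. The prohibitins PHB2 (-0.10 ± 0.09) and PHB (-0.25 ± 0.13), scaffold proteins of the inner membrane, did not pass. GRPEL1 is the nucleotide exchange factor of HSPA9. Chosen with its values in view, it was at 0.13 ± 0.09 (adjusted p = 0.45 by edgeR).

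Of 20 genes of mitochondrial protein import 1 rose and 0 fell, with a median of -0.12, where 4.56% and 3.29% of all genes were called. With the block 2 rose and 2 fell, where 8.92% and 8.4% of all genes did. At an unadjusted p under 0.05 by edgeR, 3 were higher and 4 lower, where 10.8% and 11.2% of all genes were. TIMM17A, a subunit of the inner membrane translocase and a known substrate of YME1L1, rose from 36.3 ± 4.1 to 61.8 ± 7.4 CPM, with no overlap between the groups (log2 fold change 0.77 ± 0.10, adjusted p = 0.00041 by edgeR). Its close relative TIMM17B, named after its values were seen, was at -0.11 ± 0.10 and TIMM23, their channel partner, at -0.18 ± 0.10, and neither passed. The 4 genes called with the block were TIMM17A, TOMM20 (0.24), TOMM22 (-0.32) and TOMM6 (-0.31). TIMM22 had the largest value of the list, 2.02 ± 0.72, but did not pass (adjusted p = 0.11 by edgeR), at 0.491 ± 0.060 and 3.21 ± 4.30 CPM. TIMM22 was high in tunicamycin 2 (10.8 CPM) and tunicamycin 3 (5.98 CPM) alone, the other 10 samples being at 0.407 to 0.735 CPM, and its value was 3.57 in batch 1 and 0.21 in batch 2. Of 19 genes taken as a reference for mitochondrial content 1 rose and 0 fell, with a median of -0.09, where 4.56% and 3.29% of all genes were called. At an unadjusted p under 0.05 by edgeR, 1 was higher and 2 lower, where 10.8% and 11.2% of all genes were. The gene that rose was PPARGC1A, a coactivator of mitochondrial biogenesis (0.70 ± 0.16, adjusted p = 0.017 by edgeR), a call lost without pairs 1 and 5 (adjusted p = 0.19). Leaving out tunicamycin 4 or tunicamycin 5, or adding the mesenchymal covariate, ended it too (adjusted p = 0.0571, 0.0509 and 0.0594). Citrate synthase, CS, named after its values were seen, was at 152 ± 7 and 154 ± 7 CPM (0.02 ± 0.07).

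A relay carries mitochondrial stress to the nucleus, in which cleaved DELE1 activates the kinase EIF2AK1 (HRI) and thereby ATF4. The list tested here held DELE1, EIF2AK1, ATF4, ATF5, DDIT3, CEBPB, GDF15, HSF1, HSF2, OPA1 and PGAM5, not all of them steps of this relay. Of these 11 genes 5 rose and 0 fell, with a median of 0.08, where 4.56% and 3.29% of all genes were called. DDIT3, which encodes CHOP, rose by 2.13, GDF15, a secreted stress hormone, by 1.84 and CEBPB by 1.40 on the log2 scale. ATF4 (0.46) and ATF5 (0.97) complete the 5. All 5 also respond to ER stress, which tunicamycin causes, and whether mitochondrial stress had a part in their rise was not tested. DELE1 (0.08 ± 0.12) and EIF2AK1 (0.03 ± 0.10), named after their values were seen, did not pass. The count was 4 without DMSO 4 or tunicamycin 4. Without pairs 1 and 5 it was 3, and GDF15 was then at 1.89 (adjusted p = 0.059 by edgeR).

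Levels also varied between samples of the same group, and the members did not all vary alike. After the mean of each group in each batch was removed, HSPD1 correlated with OMA1 at Pearson r = 0.91 and with HSPA9 at 0.90, and LONP1 with HSPD1 and with HSPA9 at 0.81 each, over 12 samples. HSPE1 went with CLPP (0.91) more than with its partner HSPD1 (0.45), and TRAP1 had values of -0.36 to 0.37 with the other 9 members. These points share libraries, batches and depth and are a description only. Over the 11535 genes whose log2 CPM averaged at least 3, the 3 most like LONP1 by the same measure were FAM210A, FBLL1 and SMIM20 (r = 0.98, 0.98 and 0.96). The 3 most like HSPD1 were UBA2, ARL2BP and ANKRD46 (0.98, 0.98 and 0.97). None of these 6 genes was called, with log2 fold changes of -0.15 to 0.14.

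**Figure D5:**
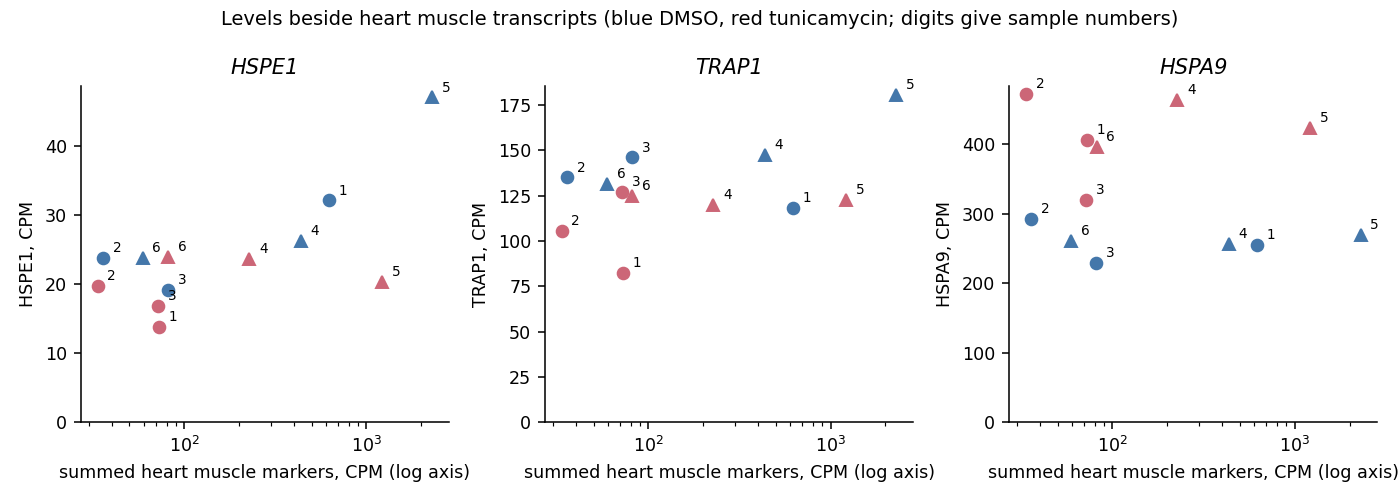
CPM of HSPE1, TRAP1 and HSPA9 against the summed CPM of 13 heart muscle markers (log axis) in the 12 samples, DMSO in blue and tunicamycin in red, circles for batch 1 and triangles for batch 2. DMSO 5, at 2300 CPM of heart muscle markers, has the highest HSPE1 (47.1 CPM) and TRAP1 (181 CPM). DMSO 1, the next of the DMSO samples at 621 CPM, has an HSPE1 of 32.2 CPM but the lowest TRAP1 of that group (118 CPM). HSPA9 is between 229 and 293 CPM in all DMSO samples.

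The response of the members did not differ detectably between the sequencing batches. The interaction of treatment and batch was called for 0 of 10 members and for 0% of all genes (0.986% at an unadjusted p under 0.05), and 0 members had an unadjusted p under 0.05. For HSPA9 it was 0.08 ± 0.22 and for LONP1 -0.08 ± 0.24 on the log2 scale.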

How the data were processed

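Reads of 12 libraries were counted per gene symbol. The tools listed in the submitters' processing notes are featureCounts 2.0.6, HISAT2 2.1.0 and cutadapt 4.4, with the build GRCh38. The deposited values are raw counts with no normalization. Neither the annotation nor the strand setting is stated, which leaves counts of overlapping genes uncertain. Totals ran from 17523442 to 28872269 counts. Samples of a group differed beyond sampling noise (chi-square per gene 10.9 to 99.6), so none was merged.

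The filterByExpr function of edgeR 4.0.16 (R 4.3.3) kept 17137 genes and removed 11141. The quasi-likelihood test of edgeR was run on TMM-scaled libraries with the batch as a term, with a threshold of 0.05 on the Benjamini-Hochberg adjusted p over all genes tested. Alternatives used DESeq2 1.42.0, limma-voom (limma 3.58.1), other scaling, no filter, covariates, a replicate block and samples left out. The tests were checked on simulated counts. Equal numbers were taken to pair samples, because deviations from group and batch means correlated at 0.53, 0.63, 0.58, 0.13, 0.19 and 0.18 for numbers 1 to 6 (highest with another number 0.27). The labels call each number a biological replicate and do not tell if equal numbers share a differentiation.

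The members, lists and tests were chosen with earlier results of these data known. Named are all members, genes of the tested ratios, LONP2, of each other list up to 3 called genes by size of change (log2 CPM averaging at least 1), or else its 2 most abundant, and the genes most like LONP1 and HSPD1. Positions are from GENCODE release 29, upstream sequences from RefSeq. Protein sequences were not used here. Of the list genes ATP23, PAM16, FGF21 and MYL3 were filtered out, and PHB1 was found under its older symbol PHB. Of the markers of other cells named by this rule, VIM (0.10), COL3A1 (-1.51), TTN (0.06) and MYL7 (-2.19) did not pass by edgeR. A result of the alpha cell markers is not reported here.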

Additional observations from a re-analysis of the deposited data

Results flagged for a closer look

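In 10 of 104 groups of 6 samples tested, 1 sample stood apart from the other 5 by Dixon's criterion, where chance flags about 1 in 20. Among the members this was CLPX in tunicamycin 2, at 68.8 CPM. Of the genes named beside them, SPG7 was high in both samples numbered 3, reaching 304 CPM in DMSO 3 and 269 CPM in its tunicamycin partner. GDF15 was high in both samples numbered 2, at 23.4 and 102 CPM. LONP2 stood at 130 CPM in tunicamycin 3 and DELE1 at 83.0 CPM in DMSO 3. COL3A1 was high in tunicamycin 5, at 241 CPM, and the heart muscle gene MYL7 was high in both samples numbered 5, with 416 CPM in DMSO 5 and 179 CPM in its partner.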

How the results depend on the processing

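Changes of single genes are log2 fold changes. The alternatives were other scaling, DESeq2, limma-voom, no filter, no batch term, a replicate block, marker covariates and samples left out, and, chosen after seeing the data, leaving out pairs 1 and 5. HSPA9 and TIMM17A kept direction and call under all 22. Unless stated, the cause of a change was not tested. With pairing by the replicate block the calls were 1 member lower, 1 other protease lower, 2 import genes higher and 2 lower, 1 cytosolic relative lower and 1 content gene lower, and none of the 7 called ratios passed: HSPA9/HSPA5 (-1.97), TRAP1/HSP90B1 (-2.97), HSPD1/HSPE1 (0.57), LONP1/CLPP (0.60) and LONP1/HSPD1 (0.50) at an adjusted p of 0.05, DNAJA3/DNAJB11 (-2.05) and YME1L1/OMA1 (0.41) at 0.0714. DESeq2 called 1 member lower, 1 other protease lower and 2 import genes higher, and gave CLPX -0.00338 and DNAJA3 -0.00248. With total counts 1 content gene was called lower, CLPX was -0.012 and PITRM1 -0.000396. CLPX was -0.00316 with RLE factors and -0.00344 with no filter. With the mesenchymal covariate 1 member and 0 content genes were called higher, HSPD1 was -0.076, CLPX -0.096, DNAJA3 -0.13, SPG7 0.18 and PITRM1 -0.074. With the heart muscle covariate CLPX was -0.0243, PITRM1 -0.031 and MYL7 0.089. Without pairs 1 and 5, 3 stress relay and 0 content genes were called higher, CLPP was 0.10, CLPX -0.0643, DNAJA3 -0.46, PITRM1 -0.0568, PHB2 0.038, HSP90AB1 0.079 and TTN -0.18. No ratio could then pass, since 36 permutations allow no p under 0.056. The log2 ratios were HSPA9/HSPA5 -2.02, TRAP1/HSP90B1 -2.96, DNAJA3/DNAJB11 -2.71, HSPD1/HSPE1 0.27, CLPX/CLPP -0.17, LONP1/CLPP 0.53, LONP1/HSPD1 0.51 and YME1L1/OMA1 0.31.

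Leaving out each sample in turn gave HSPD1 -0.0072 to 0.14, CLPP -0.11 to 0.025, CLPX -0.050 to 0.055, DNAJA3 -0.28 to 0.68, SPG7 -0.38 to 0.15, PITRM1 -0.043 to 0.071, HSP90AB1 -0.11 to 0.044 and TTN -0.18 to 0.22. The number called was 0 to 1 members lower (TRAP1 without tunicamycin 3, HSPE1 without DMSO 6), 0 to 2 import genes lower (2 without DMSO 3) 0 to 1 content genes higher and 4 to 5 stress relay genes higher. The ratios ran from -2.37 to -1.70 for DNAJA3/DNAJB11, -0.044 to 0.094 for CLPX/CLPP and 0.31 to 0.53 for YME1L1/OMA1. DNAJA3 had 20 counts in its lowest sample, and why its counts were uneven was not tested.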
